A study of Mus musculus with 6 samples.

Results

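The Argonaute-bound short RNA of 6 mouse brains held 11636 different sequences of 15 to 18 nt that carried an mRNA annotation and no miRNA annotation, 17.9% of the 65087 sequences above 0 in at least 1 sample. They were chosen by that annotation, by length and by a value above 0 in at least 1 sample. No threshold of abundance was set beyond the removal of rare reads by the authors. They are called short mRNA-annotated reads here. The brains were 3 wild-type (WT) brains and 3 brains of mice that carry human tau45-230, a fragment of the tau protein, under the Thy 1.2 promoter, which is active in neurons (Tau tg). All 6 mice were 3-month-old males, with the transgene on a C57BL/6J background. The labels give the tissue as brain and hippocampus, from cortex and hippocampus combined. Proteins of the Argonaute (Ago) family were captured with a GW182 peptide that binds them, and the RNA that came with them was sequenced. Values are RPM, reads scaled by the authors to a common library total, and correspond to 998248 to 6879551 whole reads per sample. The brain miRNA miR-124-3p stood at 47769 to 90279 RPM, and the liver miRNA miR-122-5p at 0 to 28.4 RPM.

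Argonaute proteins hold a short RNA with its 5′ end anchored in a pocket, and bases 2 to 7 from that end, the 6mer seed, pair first with a target mRNA. Most guides are miRNAs cut from hairpins by Drosha and Dicer, but pieces of tRNAs, rRNAs and mRNAs are also found in Argonaute pull-downs. The study scores each seed by its viability, the percent of cells that survive, averaged over 3 murine cell lines, when an RNA with that seed is introduced. A low value marks a toxic seed, and toxic seeds are often rich in G. The gel step of the protocol selected RNA of 19 to 35 nt, so reads of 15 to 18 nt lie below its stated lower limit.

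A minority of the reads, 5.48%, matched the transcript they were named for over their full length. The reads below are taken from that minority and matched in the sense direction of GENCODE M21 (build GRCm38). They are written 5′ to 3′ as DNA, with the 6mer seed in capitals. The first set is shown because it includes the most abundant member, an 18 nt read named for Hif3a, a subunit of a hypoxia-response transcription factor, and its shorter forms with the same start and seed.
Hif3a, 18 nt: aCCCCACtcctggtacca
Hif3a, 17 nt: aCCCCACtcctggtacc
Hif3a, 16 nt: aCCCCACtcctggtac
The 18 nt read lay on the minus strand at chr7:17053766-17053783 in coding exon 4 of Hif3a. It also ended in CCA, the trait given for the third set below, and was contained in no tRNA-annotated read. The same 18 bases were also found in transcripts of 5 other genes, 6 in all, so the name Hif3a is not unique to it.

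The second set is shown because its bases belong to a miRNA precursor. These reads were named for Vmp1, which encodes an autophagy membrane protein and whose 3′ UTR overlaps the miR-21 precursor. The mature miR-21a-5p of RefSeq (GRCm38.p6, minus strand of chromosome 11, 86584120 to 86584141) is written below them as RNA, with its seed at bases 2 to 8 in capitals.
Vmp1, 18 nt, chr11:86584119-86584136: tATCAGActgatgttgac
Vmp1, 17 nt, chr11:86584119-86584135: aTCAGACtgatgttgac
Vmp1, 15 nt, chr11:86584119-86584133: cAGACTGatgttgac
Vmp1, 17 nt, chr11:86584121-86584137: tTATCAGactgatgttg
mmu-miR-21a-5p: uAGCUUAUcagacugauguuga
Each of these Vmp1 reads began inside the miRNA, so that the seed differed from that of miR-21a-5p. In the order printed, the viability of their seeds was 75.5%, 35%, 67.9% and 63.8%, against 80.2% for the seed of the mature miRNA.

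The third set is shown because it ends in CCA, the trinucleotide that cells add to the 3′ end of every tRNA. These reads were named for Adarb2, an RNA-binding relative of the RNA-editing enzymes, where they lie on the plus strand in the 3′ UTR of a transcript marked for nonsense-mediated decay.
Adarb2, 18 nt, chr13:8767045-8767062: gTCCCTGttcgggcgcca
Adarb2, 17 nt, chr13:8767046-8767062: tCCCTGTtcgggcgcca
Both reads were also contained whole in longer reads annotated as the lysine tRNAs LysCTT and LysTTT. The fourth set is shown because it comes from mRNA of the mitochondrial genome, on the plus strand and inside the coding sequence, with mt-Co1 encoding a subunit of cytochrome oxidase and mt-Cytb cytochrome b. These reads were rare. The mt-Co1 reads were at 14.05 RPM in WT 1 alone and at 8.59 RPM in Tau tg 3 alone. The mt-Cytb read was at 1.42 and 5.73 RPM in Tau tg 1 and Tau tg 3 alone.
mt-Co1, 15 nt, chrM:6014-6028: tCTCTACcagcatct
mt-Co1, 16 nt, chrM:5839-5854: tGAAACCcccagccat
mt-Cytb, 17 nt, chrM:14701-14717: cATTTATtatcgcggcc

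Such exact matches were the exception. Of the 11636 sequences, 638 (5.48%) matched the named transcript exactly in sense and 10724 (92.2%) did not match it over their full length on either strand. The remaining sequences were 1 that matched only in antisense and those whose transcript identifier is not in GENCODE M21. Among the 11363 with an identifier in M21, 11213 (98.7%) shared an unbroken run of at least 13 bases with the named transcript, and none had a longest run of 12. The median run was 14 bases. The annotation of most members therefore rests on a partial match. Where a read had no exact match, its gene name is only the name the annotation gave it, and the origin of these reads was not tested.

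Matches fell with length. An exact sense match to any M21 transcript was found for 14.4% of the 15 nt reads, 6.39% of the 16 nt reads, 4.44% of the 17 nt reads and 3.21% of the 18 nt reads. Antisense matches fell faster, from 12.7% at 15 nt to 4.28%, 1.71% and 0.97%. At 15 nt the sense and antisense shares were thus close to each other, and at 18 nt the sense share was the larger. The 4 lengths were present in similar numbers, 2970, 3128, 2858 and 2680 sequences.

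Members named for mitochondrial mRNAs mostly matched. Of 33 members named for a gene of the mitochondrial genome, 32 matched exactly, and they came from 10 of 37 mitochondrial genes. Neuronal marker genes had 20 members, of which 3 matched, and ribosomal protein genes had 30, of which 6 matched. Astrocyte markers had 5 members with 2 matches, oligodendrocyte markers 8 with 1, microglial markers 3 with none, vessel markers 5 with none and choroid plexus markers 2 with 1. Pituitary hormone genes and blood haemoglobin genes had no member in any sample.

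Their levels were low and uneven. Reads named for mitochondrial mRNAs summed to 44.97 RPM in WT 1, 0 in WT 2 and 0 in WT 3, and to 48.8, 10.04 and 27.0 RPM in Tau tg 1 to 3. A value of 0 means 0 counted reads, which an expected level of up to 3 reads can still give. Those 3 reads are 2.03 RPM in WT 2 and 2.75 RPM in WT 3. The groups overlapped.

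Few of the short mRNA-annotated reads recurred between brains. Of the 11636 sequences, 10336 (88.8%) were above 0 in a single sample, and these held 74.0% of the mean RPM. Only 57 (0.49%) were above 0 in all 6 samples. Among mRNA-annotated reads of 19 nt or more the single-sample share was 82.2%, and among the 405 miRNA-annotated reads of the same 15 to 18 nt it was 23.0%. In those truncated miRNA reads, 78 sequences present in all 6 samples carried 73.2% of the mean RPM, against 6.30% for the 57 recurrent members.

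Most detected members rested on more than 1 read. The median number of reads behind a detected member was 13 to 23 in the 6 samples, and 116 to 193 members per sample rested on 1 read. The authors had removed rare reads before deposit, which bears on these numbers, so they are not taken as support for detection. Each sample held 1587 to 3003 members, of which 69.8% to 76.0% were seen nowhere else. Any 2 samples shared 167 to 437 sequences, and pairs within a group (218 to 437) overlapped in range with pairs across groups (167 to 348).

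The mRNA names were spread thinly. The members named 6815 genes, 4376 of them through 1 sequence only, and carried 3424 of the 4096 possible seeds. The 12 most abundant members held 4.28% of the members' mean RPM and the 100 most abundant 11.4%. The gene with most members was Ppp4r3b, a regulatory subunit of protein phosphatase 4, with 69 sequences of which none matched it exactly. Mboat2, a lysophospholipid acyltransferase, followed with 43, and Slc39a6, a zinc transporter, with 30.

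A shared run of 9 bases was found in many of the reads under these 3 names, in 51 of 69 for Ppp4r3b, 39 of 43 for Mboat2 and 30 of 30 for Slc39a6. The run recurred in 220 members (1.89%), at the first position in 204 of them, under 77 gene names and with no exact match to any named transcript. It was found in no miRNA-annotated and no tRNA-annotated read, but in 2.27% of the sequences without annotation. Members with it took 2.13%, 2.35% and 1.22% of member RPM in WT 1 to 3 and 2.17%, 1.06% and 2.39% in Tau tg 1 to 3. Its origin was not tested.

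Reads ending in CCA were the second recurrent class. They numbered 1090 (9.37%) under 795 gene names, and 57 of them matched the named transcript exactly. By abundance they made up 14.3%, 14.7% and 12.5% of member RPM in WT 1 to 3 and 14.5%, 10.8% and 20.1% in Tau tg 1 to 3. The CCA share was higher in the members than in the miRNA-annotated reads of the same library in all 6 samples (mean difference 10.5 percentage points, SD 3.65, exact sign-flip p = 0.031, the smallest that 6 samples allow, adjusted p = 0.041 over 21 within-library comparisons). Against mRNA-annotated reads of 19 nt or more it was higher in 5 of 6 samples, 14.5% against 10.1% on average (SD of the difference 6.58, exact sign-flip p = 0.19, adjusted p = 0.20). In tRNA-annotated reads it was 19.98% to 34.0%. Between the groups the share was 13.8% ± 1.21 in WT and 15.1% ± 4.70 in Tau tg (mean ± SD, n = 3, exact permutation p = 0.8).

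Members that lie inside miRNA hairpins were few. There were 61 of them (0.52%) under 24 host gene names, 28 of them above 0 in at least 2 samples and 6 in all 6. Of the 52 that fell wholly inside a mature arm, 43 began after its first base and 9 at it, with a median start at base 6. Reads with a miRNA annotation were left out by the choice of members, so these starts do not describe short hairpin reads in general. The Vmp1 reads in the miR-21a hairpin led with 14 sequences, summing to 52.0, 34.6 and 131.2 RPM in WT 1 to 3 and 35.9, 61.9 and 128.1 RPM in Tau tg 1 to 3. The miRNA-annotated miR-21a-5p reads stood at 17276 to 52006 RPM, far above them.

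Other host genes carried less. Reads named for Dnm3os, the RNA that hosts miR-199a and miR-214, included the 17 nt read tAGTCTGcacattggtt at chr1:162217887-162217903, plus strand, which covers bases 5 to 21 of mmu-miR-199a-3p, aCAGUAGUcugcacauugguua. It was present in every sample, at 2.81, 14.2 and 8.26 RPM in WT 1 to 3 and 3.84, 19.2 and 4.50 RPM in Tau tg 1 to 3. The groups overlapped. Members in hairpins made up 0.42%, 0.35% and 0.47% of member RPM in WT against 0.88%, 0.78% and 0.80% in Tau tg. Every Tau tg value lay above every WT value (0.41% ± 0.063 against 0.82% ± 0.053, mean ± SD, n = 3, exact permutation p = 0.1, the smallest possible, adjusted p = 0.375 over 15 sequence sets). Their summed level was 122.0 ± 37.8 RPM in WT against 136.0 ± 52.8 RPM in Tau tg, while the sum over all members averaged 29445 RPM in WT against 16870 RPM in Tau tg.

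The same held for exact matches to the named transcript. They took 5.59%, 4.87% and 5.47% of member RPM in WT 1 to 3 and 8.43%, 5.86% and 6.70% in Tau tg 1 to 3, again without overlap (exact permutation p = 0.1, adjusted p = 0.375). Their summed RPM was 1171.5, 1596 and 1891 in WT and 717, 1242 and 1400 in Tau tg, and here the groups overlapped.

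The first base set the members apart from miRNAs. Many miRNAs start with U, the base that the pocket of the Ago2 MID domain prefers. U was the first base of 20.5% to 22.2% of member RPM, against 70.1% to 72.9% in miRNA-annotated reads, lower in 6 of 6 samples (mean difference −50.2 percentage points, SD 1.16, exact sign-flip p = 0.031, adjusted p = 0.041). Against mRNA-annotated reads of 19 nt or more the difference was smaller, −6.12 points with an SD of 3.80, and also held in 6 of 6 samples (exact sign-flip p = 0.031, adjusted p = 0.041). The truncated miRNA reads of 15 to 18 nt kept U at position 1 in 51.2% to 55.9% of their RPM.

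Toxic seeds took a larger part of the RPM in the members than in the rest of each library. Counted by sequence the gap was smaller. Under 25% viability were 12.7% of the members and 10.1% of all other sequences, and at 25% to 50% they were 22.6% and 22.1%. Seeds with a viability under 25% carried 12.9% to 14.2% of member RPM and 2.95% to 3.79% of all other reads, a mean difference of 9.98 percentage points (SD 0.349) in the same direction in 6 of 6 samples (exact sign-flip p = 0.031, adjusted p = 0.041). Under 50% viability the shares were 36.6% to 39.5% and 23.4% to 25.4% (mean difference 13.3 points, SD 0.772, exact sign-flip p = 0.031, adjusted p = 0.041). The median viability went the other way, 58.0% to 59.8% in members and 56.2% to 57.3% in all other reads (exact sign-flip p = 0.031, adjusted p = 0.041). Seeds of 50% to 75% viability took 42.2% to 43.6% of member RPM and 47.4% to 55.7% of the other reads. The mean viability was lower in members, with a difference of −3.63 points and an SD of 1.15 (exact sign-flip p = 0.031, adjusted p = 0.041).

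Longer mRNA-annotated reads resembled the members more closely. Seeds under 25% took 8.33% to 15.5% of their RPM, and the difference from the members was 1.18 points with an SD of 2.74 (exact sign-flip p = 0.344, adjusted p = 0.344). Under 50% viability the members were lower in 5 of 6 samples, by a mean of 6.87 points with an SD of 4.84 (exact sign-flip p = 0.0625, adjusted p = 0.069). Seed G content was 29.1% to 30.9% in members, 25.1% to 28.3% in all other reads and 31.0% to 37.1% in the longer mRNA-annotated reads. The last difference, −3.88 points with an SD of 1.77, held in 6 of 6 samples (exact sign-flip p = 0.031, adjusted p = 0.041).

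The question the design asks of these reads is whether their amount or their seeds differ between WT and Tau tg brains. In bulk tissue, fewer cells of a type and less RNA per cell cannot be told apart. Short mRNA-annotated reads made up 2.18%, 3.49% and 3.78% of the library in WT 1 to 3 and 0.869%, 2.20% and 2.17% in Tau tg 1 to 3. WT 1 fell among the transgenic values, and Tau tg 1 stood below all others. The means were 3.15% ± 0.850 and 1.74% ± 0.759 (SD, n = 3, exact permutation p = 0.2, adjusted p = 0.6 over 6 summary measures). The Wilson 95% intervals, which cover counting error only, reached at most 0.037 points to either side of a value. Tau tg 1 was also the deepest library, at 6879551 reads against 998248 to 2358928 in the others, and the part of depth in the share was not tested.

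As a share of all mRNA-annotated reads the groups did not overlap. The short class took 44.4%, 39.5% and 41.1% in WT 1 to 3 and 32.9%, 38.5% and 35.9% in Tau tg 1 to 3, a difference of means of −5.88 points. The exact permutation p was 0.1, the smallest that 3 against 3 samples can give, and 0.6 after adjustment. The difference was −14.2 points over members with a mean of at least 1 RPM and −0.93 points over those above 0 in at least 2 samples (exact permutation p = 0.2 and 0.4).

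No seed measure differed between the groups beyond the spread of the samples. The RPM-weighted median viability was 59.8%, 58.0% and 58.6% in WT 1 to 3 and 58.4%, 59.1% and 58.6% in Tau tg 1 to 3 (exact permutation p = 0.9, adjusted p = 0.9). The weighted mean was 54.6% ± 0.620 in WT and 54.0% ± 0.421 in Tau tg (SD, n = 3, exact permutation p = 0.3, adjusted p = 0.6). Seeds under 50% viability took 37.7% ± 1.17 and 38.4% ± 1.05 of member RPM (exact permutation p = 0.5, adjusted p = 0.75), and G made up 29.97% ± 0.353 and 29.8% ± 0.951 of the seed bases (exact permutation p = 0.9, adjusted p = 0.9).

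The 1300 members above 0 in at least 2 samples were measured as well. This subset was chosen after the data were seen. Their weighted mean viability was 54.0%, 52.9% and 53.3% in WT 1 to 3 and 51.7%, 48.7% and 52.0% in Tau tg 1 to 3, so that every Tau tg value was below every WT value. Seeds under 50% took 37.3%, 39.8% and 40.3% of their RPM in WT against 41.6%, 46.7% and 44.0% in Tau tg, again without overlap. For both, the exact permutation test gave p = 0.1, the smallest possible. Seed G content in this subset was 31.8% ± 1.29 in WT and 30.5% ± 4.26 in Tau tg and overlapped (SD, n = 3, exact permutation p = 0.6). In the 638 exact matches the weighted mean viability was 55.8% ± 2.33 in WT and 56.9% ± 1.83 in Tau tg (SD, n = 3, exact permutation p = 0.6).

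Single sequences were compared with limma over the 36070 sequences averaging 1 RPM or more, of which 7149 were members, 61.4% of all members. A member seen in 1 sample passes this filter through that sample. At an unadjusted p under 0.05, 73 members (1.02%) were lower and 16 (0.224%) higher in Tau tg, against 0.787% and 1.44% of all sequences tested. The balance turned when some single libraries were left out, with 19 lower and 32 higher without Tau tg 1, 20 lower and 45 higher without Tau tg 3, while it was 17 lower and 13 higher without Tau tg 2. After Benjamini-Hochberg adjustment 2 members were called, both lower in Tau tg, 0.028% of the members against 0.0277% of all sequences tested.

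The called members came with limits. Both passed the filter at a mean of 1 RPM through their WT values, so their calls are not taken as support for a difference. The first was an 18 nt read with seed UAGUCG named for Kdm5a, a histone H3K4 demethylase, that did not match it exactly. It was at 178.5 and 210.1 RPM in WT 1 and WT 2 and at 0 in WT 3 and all 3 Tau tg samples (log2 difference −5.07, SE 1.10, limma adjusted p = 0.019). Over the alternatives its adjusted p ran from 5.35e-11 with edgeR to 0.99 with the higher filter of 10 RPM, and it was 0.64 to 0.73 when any sample but WT 3 was left out and 0.0020 without WT 3. The second was a 16 nt read with seed GCGGAC. Its annotation named Nlrp12, an innate immune receptor, and another transcript whose identifier is not in GENCODE M21. The read ended in CCA and had no exact match. It was at 28.6, 39.3 and 45.9 RPM in WT 1 to 3 and at 0, 0 and 2.86 RPM in Tau tg 1 to 3, without overlap (log2 difference −4.61, SE 1.04, limma adjusted p = 0.034). Its adjusted p ran from 0.011 to 0.89 over the alternatives, and was 0.64 to 0.73 when any single sample was left out.

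The Kdm5a read belongs to a set. After the seed it carried the start of a 12-base run that also follows other seeds in longer reads. These include GGGGGC, which is also the seed of sGGGGGC, a synthetic RNA that the paper transfected into cells. The origin of the run was not tested. Among members, 6 held at least 8 bases of that start, under the names Kdm5a, Hgfac and Fbn1 and with 3 different seeds. Together they were at 190.6, 224.3 and 99.1 RPM in WT 1 to 3 and 30.7, 121.3 and 99.4 RPM in Tau tg 1 to 3. The set as a whole thus overlapped between the groups. Without these reads and the longer ones, the Nlrp12 read kept its log2 difference of −4.61 but had a limma adjusted p of 0.080, so no member was called.

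The most abundant members varied as much within groups as between them. The 18 nt Hif3a read printed above was at 15.5, 423.5 and 558.7 RPM in WT 1 to 3 and at 97.3, 166.4 and 294.6 RPM in Tau tg 1 to 3, a spread in WT that enclosed all Tau tg values (log2 difference 0.11, SE 0.60, limma adjusted p = 0.92). Its mean was 332.5 RPM in WT against 186.1 RPM in Tau tg, and without WT 1 the log2 difference was −1.52. Its 17 nt form was at 2.81, 103.7 and 21.1 RPM in WT against 9.39, 25.1 and 57.7 RPM in Tau tg. In both forms WT 1 was the lowest sample.

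The other reads of the top 12 matched no named transcript exactly. A 16 nt read with seed GCUGGC named for Trim69, a ubiquitin ligase, was at 141.0, 172.8 and 40.4 RPM in WT 1 to 3 and at 35.0, 419.8 and 81.0 RPM in Tau tg 1 to 3. It was highest in Tau tg 2, as was a read of the same seed named for Synj2, a phosphoinositide phosphatase, at 169.8 RPM there and at 0.142 to 40.4 RPM elsewhere. An 18 nt read named for Arhgef12, a guanine nucleotide exchange factor, was at 292.9 RPM in Tau tg 3 but 5.85 RPM in Tau tg 2. A 16 nt read named for Col25a1, a brain collagen, was at 48.2, 139.6 and 78.9 RPM in WT against 5.98, 76.1 and 11.05 RPM in Tau tg (limma adjusted p = 0.58). Of the top 12, 7 ended in CCA.

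Groups did not overlap for 3 of the 57 members above 0 in all 6 samples, all lower in Tau tg (5.26%), against 3.45% lower and 5.86% higher among all sequences above 0 in every sample. No member was higher without overlap. The largest of the 3 was a 16 nt read named for Dnah5, a dynein of motile cilia, at 28.1, 61.7 and 25.7 RPM in WT against 2.70, 18.4 and 12.7 RPM in Tau tg (limma adjusted p = 0.58). The others were a 17 nt read named for Pogz at 9.49 to 23.9 RPM in WT against 0.711 to 4.91 RPM in Tau tg, and a 17 nt read named for Lemd2 at 0.917 to 1.41 RPM in WT against 0.142 to 0.836 RPM in Tau tg. The Pogz read had no exact match in Pogz and was contained whole in a longer read annotated as the tRNA AlaAGC. The Lemd2 read rested on 1 read in WT 3 and in each Tau tg sample, so its order between those samples is that of their library sizes.

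Summed by named gene, no gene passed the adjusted threshold in limma. Of 5002 genes of short reads with a mean of at least 1 RPM, 31 (0.62%) were lower and 10 (0.2%) higher at an unadjusted p under 0.05, against 0.656% and 0.287% of all 9762 gene sums tested, which include the longer mRNA-annotated reads. The balance turned to 33 lower and 61 higher without Tau tg 1, 32 and 64 without Tau tg 2 and 43 and 122 without Tau tg 3, and was 74 and 78 without WT 2. It was 13 lower and 18 higher with edgeR and 20 and 17 with median-of-ratios scaling. The lowest adjusted p was 0.557, edgeR called 0 and DESeq2 called 6. Leaving out a single sample gave 56, 32 and 52 calls without WT 1 to 3 and 4, 1 and 78 without Tau tg 1 to 3, of which 49 of 56 (WT 1) and 73 of 78 (Tau tg 3) were higher in Tau tg. Among all gene sums 0.0102% were called. The median log2 difference was −0.81 over the genes of short reads and −0.38 over those of longer reads.

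Hif3a had the highest sum, 18.7, 570.5 and 610.9 RPM in WT 1 to 3 and 113.8, 216.6 and 397.3 RPM in Tau tg 1 to 3, from 24 members of which 10 matched exactly. Trim69 followed at 138.5 to 223.6 RPM in WT against 59.6 to 628.9 RPM in Tau tg, and Ppp4r3b at 149.9 to 307.3 and 70.4 to 199.7 RPM. Adarb2, with 9 exact matches among 17 members, stood at 36.1, 108.4 and 125.7 RPM in WT against 66.2, 70.3 and 161.2 RPM in Tau tg. Vmp1, with 14 exact matches among 23, stood at 52.0, 35.2 and 164.2 RPM and at 47.0, 69.4 and 152.2 RPM. The groups overlapped for each of these 5 genes.

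The other genes of the top 12 described here had 1 exact match among them. Arhgef12 summed to 33.7 to 268.8 RPM in WT against 47.7 to 354.7 RPM in Tau tg, Trpm8, the cold-sensing channel, to 56.9 to 168.2 and 49.5 to 126.0 RPM with 1 exact match among 10, and Plppr5 to 67.1 to 163.3 and 18.2 to 95.7 RPM. Col25a1 was at 195.3, 215.5 and 141.3 RPM in WT against 35.3, 98.7 and 154.7 RPM in Tau tg. Recql, a DNA helicase, was at 57.2 to 317.8 RPM in WT against 24.3 to 73.2 RPM in Tau tg. Kdm5a was at 247.8 and 252.1 RPM in WT 1 and WT 2 and at 0 to 26.8 RPM in the other 4 samples.

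Among the 104 genes above 0 in all 6 samples the groups did not overlap for 18. Lower in Tau tg were 17 (16.3%), against 9.81% of all gene sums above 0 in every sample, and higher was 1 (0.962%), against 1.90%. The 4 with the largest falls in RPM were Slc38a1, a glutamine transporter of neurons, Gal3st1, which makes the myelin lipid sulfatide, Fbxo31 and Ebf2, and none of the 4 had an exact match. Slc38a1 was at 109.6, 101.0 and 40.4 RPM in WT against 22.9, 22.6 and 22.1 RPM in Tau tg (log2 difference −1.72, SE 1.23, limma adjusted p = 0.557). Gal3st1 was at 21.6, 42.7 and 70.6 RPM in WT against 6.55, 7.53 and 4.91 RPM in Tau tg.

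The gene that was higher without overlap was Tnrc6b, a member of the GW182 family of Argonaute partners. It was at 0.468, 0.678 and 0.917 RPM in WT 1 to 3 and at 1.99, 30.9 and 14.7 RPM in Tau tg 1 to 3. Each of the WT values is that of 1 read. Of its 5 members 3 matched exactly, and the limma adjusted p was 0.557 (log2 difference 2.77, SE 1.70).

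Levels of the other listed genes were mostly low and absent from some samples. Gad2, a GABA-synthesising enzyme, was the most abundant neuronal name at 1.41, 21.01 and 34.9 RPM in WT against 7.54, 60.2 and 26.6 RPM in Tau tg, from 7 members without an exact match. Map2 was at 3.75 and 53.5 RPM in WT 1 and WT 2 and at 0 in the other 4 samples. Grin1, an NMDA receptor subunit, was at 0, 14.9 and 29.4 RPM in WT against 0.142, 0 and 0 RPM in Tau tg. Over the 7 neuronal genes tested, none passed at an unadjusted p and the median log2 difference was −1.32, beside −0.81 over all genes of short reads. The latter value depends on the filter, so nothing is read from the gap.

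Glial names were lower still. Gja1, Mobp and Mbp summed to means of 4.57, 4.79 and 2.26 RPM over the 6 samples, and Tmem119 to 4.90 RPM. Outside glia, the vessel name Pecam1 averaged 10.3 RPM. The choroid plexus name Folr1 averaged 4.13 RPM, from 1 exact match in WT 3. Of the 2 astrocyte, 4 oligodendrocyte, 1 microglial, 2 vessel and 2 choroid plexus genes tested, none passed at an unadjusted p. Among genes linked to Alzheimer's disease, reads were named for 4 of 9, led by Bin1, Clu and Bace1, with no exact match and no call among the 3 tested. Argonaute and miRNA-processing genes had members for 8 of the 12 in GENCODE M21, led by Xpo5, Tnrc6b and Tnrc6c. None of the 6 tested passed an unadjusted p of 0.05.

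Ribosomal protein names summed to 54.8, 29.1 and 87.2 RPM in WT against 5.12, 98.7 and 67.1 RPM in Tau tg. Their largest entry, Rps6ka2 at a mean of 14.5 RPM, is a kinase that the symbol rule took in, and Rpl6 with 4.12 RPM had 1 exact match. None of the 18 tested passed. Histone names reached 10.7 RPM at most. Of the mitochondrial mRNAs, mt-Co1 averaged 6.85 RPM, mt-Nd2 4.10 RPM and mt-Atp6 2.72 RPM, and none of the 7 tested passed. Their median log2 difference was 1.10, against −0.81 over all genes of short reads, a value that depends on the filter.

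Summed by 6mer seed, 1 seed was called. Of 2999 seeds with a mean of at least 1 RPM of member reads, 83 (2.77%) were lower and 10 (0.333%) higher in Tau tg at an unadjusted p under 0.05, against 2.52% and 0.936% of all 6834 seed sums, which include the other reads. Without Tau tg 2 the counts were 67 lower and 155 higher, without Tau tg 3 they were 71 and 56, and without Tau tg 1 they were 47 and 36. After adjustment UAGUCG alone was called, 0.0333% against 0.0878%. It was at 194.4, 224.3 and 29.4 RPM in WT against 3.13, 0 and 0 RPM in Tau tg (log2 difference −6.10, SE 1.23, limma adjusted p = 0.0017), with a viability of 83.7%, and 86.1% of its RPM was the Kdm5a read. In the rest of the library, reads with this seed were at 3980.6, 3201.0 and 78.0 RPM in WT 1 to 3. In Tau tg 1 to 3 they were at 26.5, 72.8 and 20.5 RPM, so the seed is not particular to the members. Without the members that hold the start of the shared run the limma adjusted p was 0.90 and the log2 difference −1.69. Leaving out any single sample gave a limma adjusted p of 0.65 to 0.84. The seed passed the filter through its WT values, so its call is not taken as support for a difference.

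The most abundant seed was AGUCCG, with 245 members under 99 gene names and a viability of 60.1%. It was at 467.5, 769.8 and 493.5 RPM in WT against 206.3, 224.1 and 538.8 RPM in Tau tg. The seed CCCCAC (65.3%) followed the Hif3a read, which made up 77.6% of it, at 24.8 to 647.6 RPM in WT against 110.6 to 433.3 RPM in Tau tg. The seed GCUGGC, with a low viability of 25.4%, was at 179.8 to 260.9 RPM in WT against 65.6, 786.1 and 151.0 RPM in Tau tg.

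The toxic seed GGAGCA, with a viability of 16.8%, did not overlap between the groups. It was at 77.3, 370.0 and 99.1 RPM in WT 1 to 3 and 24.3, 71.9 and 73.2 RPM in Tau tg 1 to 3 (log2 difference −1.47, SE 0.70, limma adjusted p = 0.90). The seed AUCAGC, with 23.1%, came from 49 members under 49 gene names and was at 119.0, 129.4 and 111.9 RPM in WT against 16.2, 149.7 and 31.9 RPM in Tau tg. The seed UCCCUC (viability 41.7%), the seed UCUCGG (82.0%) and the seed CCCCAG (65.5%) completed the 8 most abundant seeds, and their groups overlapped.

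Among the 157 seeds above 0 in all 6 samples, 20 (12.7%) were lower in Tau tg without overlap, against 6.12% of all seed sums above 0 in every sample, and none was higher, against 3.67%. GCGGGA, with a viability of 44.4%, was among them at 37.5, 185.7 and 70.6 RPM in WT against 7.68, 7.53 and 9.41 RPM in Tau tg (limma adjusted p = 0.65). Its reads in the rest of the library were at 29.5 to 122.6 RPM and 6.69 to 54.4 RPM. The named seeds GUGCUG, then CUAUUG, and then AUGCCG were at 0 in every WT sample and at 4.55 to 41.0 RPM in Tau tg, with a viability of 72.5% to 80.7%. They passed the filter through Tau tg only, so nothing is read from the absence of overlap. The sum over all members was 20955, 32791 and 34588 RPM in WT 1 to 3 and 8505, 21206 and 20900 RPM in Tau tg 1 to 3, and the groups overlapped.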

How the data were processed

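Ago-bound RNA of 3 WT and 3 Tau tg brains was sequenced as small RNA libraries. The authors trimmed the reads with Trim Galore (version not given in the sources used here), tabulated unique reads, removed rare and artificial ones, annotated the rest by BLAST against mouse small RNA lists and mRNAs named on mm9, and deposited each value as RPM, reads scaled to a common library total. The deposited viability score per seed is the percent viability over 3 murine cell lines. A further deposited total column was not used. PCR copies were not distinguishable. Whole reads were recovered for 100% of values (tolerance 0.05 read), giving 998248 to 6879551 reads per sample, where 3 reads correspond to 0.427 to 2.75 RPM.

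Members were the mRNA-annotated sequences of 15 to 18 nt without a miRNA match. Members and lists were chosen with earlier results of these data known. Transcript identifiers were looked up in GENCODE M21 (GRCm38), where 97.7% were found, and hairpins and mature miRNAs in RefSeq. No mm9 coordinates were used. Printed sequences are exact sense matches with a mean of at least 5 RPM that were above 0 in at least 4 samples, or mitochondrial ones with a mean of at least 1 RPM, and only some of them are shown. Named items were the 12 most abundant sequences and genes and the 8 most abundant seeds, those with an adjusted p under 0.05, up to 4 sequences and 4 genes per direction above 0 in all 6 samples without overlap, up to 3 seeds per direction without overlap, and the 3 most abundant genes of each list. Of these, 1 gene of the top 12 is not reported here.

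Summary measures were compared by exact two-sided permutation over 20 assignments, and members with other reads of the same library by exact two-sided sign-flip tests, with Benjamini-Hochberg adjustment. Sequences, gene sums and seed sums were fitted over the whole table with limma 3.58.1 (trend) on log2(RPM + 1), after a filter at a mean of 1 RPM, in R 4.3.3. A fold on this scale understates the change of low values. Alternatives on the recovered whole reads used edgeR 4.0.16 and DESeq2 1.42.0. The labels do not say whether the mice of a group shared a litter, and p-values measure the spread between these samples.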

Additional observations from a re-analysis of the deposited data

How the results depend on the processing

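Among the 6 summary measures, the share of reads and the share of mRNA fragments stayed lower in Tau tg under every alternative but 1, the share of mRNA fragments among exact matches, which was 0.2615 points higher. With exact matches only (an alternative chosen after seeing the data, as are those without CCA ends or the start of the shared run), the difference was 1.067 for median viability, 1.068 for mean viability and −4.309 points for seeds under 50%, each turned. The share of seeds under a limit of 60% differed by −0.1674 points, seed G content without CCA ends by 0.03902 points and median viability without the start of the shared run by 0.1333. Leaving out 1 sample gave −0.5 to 0.4 for median viability and −0.681 to 0.2113 points for seed G content. None of these could have passed an exact permutation test at 0.05. The smallest p it can give is 0.1 with all 6 samples, and it is larger with 1 left out.

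The 2 sequences called became 0 with a pseudocount of 5, no filter, a filter at 10 RPM, limma without trend, exact matches or without the start of the shared run, 1 without the whole 12-base run, 4 with edgeR, 117 with DESeq2, and 0 to 3 when 1 sample was left out. At an unadjusted p, 89 became 46 with the pseudocount of 5, 11 at 10 RPM, 627 with edgeR, 908 with DESeq2, 4 among exact matches, and 30 to 75 with 1 sample left out. Genes went from 0 called to 6 with DESeq2 and 1 to 78 with 1 sample left out (56, 32 and 52 without WT 1 to 3 and 4, 1 and 78 without Tau tg 1 to 3), and from 41 at an unadjusted p to 13 at 10 RPM, 111 with DESeq2, 139 without trend, 0 among exact matches and 94 to 244. Seeds went from 1 called to 15 with DESeq2 and 0 without trend, without the start of the run, among exact matches and with any sample left out, and from 93 at an unadjusted p to 46 at 10 RPM, 165 with edgeR, 212 with DESeq2, 161 without trend, 0 among exact matches and 83 to 222. Same-numbered WT and Tau tg samples did not deviate together (correlations of −0.044 to 0.012 across sequences, genes or seeds). With replicate number as a block, 4 sequences, 0 genes and 1 seed were called, and the smallest p of the paired exact test was 0.25. Of 787 values for 45 named items, 680 kept direction and side of the threshold, 72 of uncalled items changed sign, 32 lost the call and 3 gained it. The cause was not tested. Depth limits single sequences, since 3 reads are 0.427 to 2.75 RPM.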
